A study of Mus musculus with 16 samples.

Results

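Csf1, Gas6 and Pdgfa encode secreted ligands by which fibroblasts support macrophages and neighbouring mesenchyme, and their transcripts were measured in mouse fibroblasts of 2 cell types, M833 and WT. They were taken as the probes whose platform annotation gave one of these symbols alone: 3 of 15247 probes, 1 for each gene, and so 3 of 7114 named genes. RNA of M833 (8 arrays) and of WT (8 arrays) was hybridised together with a common reference RNA of unstated make-up on two-colour arrays, with the sample in Cy5 on 4 arrays of each cell type and in Cy3 on the other 4. The series is titled for mutations of Met, which encodes the HGF receptor, in MEFs (mouse embryonic fibroblasts). The labels call the cell types only M833 and WT, and do not say which allele M833 carries, from how many clones or embryos either came, or what strain, age or treatment they had. Whether each array had a culture of its own is not said, so the p-values below reflect spread among arrays that may be technical.

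CSF1, the colony stimulating factor of macrophages, acts through the receptor tyrosine kinase CSF1R and sustains survival and proliferation of macrophages in many tissues. GAS6 is a vitamin K-dependent protein, first cloned from growth-arrested fibroblasts, that binds phosphatidylserine through its Gla domain and activates the TAM receptors TYRO3, AXL and MERTK, with which phagocytes take up apoptotic cells. PDGF-A forms homodimers that activate PDGFRA on mesenchymal cells and drives their proliferation and migration. The receptor is often carried by a neighbouring cell, although fibroblasts also carry PDGF and TAM receptors themselves.

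In the mouse genome (build GRCm38.p6, RefSeq annotation) Csf1 lies at chr3:107741048-107760469, Gas6 at chr8:13465374-13494535 and Pdgfa at chr5:138976014-139000792, all on the minus strand. Their promoter windows, from 250 bases before to 50 bases after an annotated start, are shown because the 3 genes are compared throughout, with GC boxes (GGGCGG on either strand), the motif of SP1-type factors, in capitals. The Csf1 window is chr3:107760420-107760719 and the Gas6 window is chr8:13494486-13494785. Of 2 Pdgfa windows, which both lie inside the span of the gene, chr5:138994895-138995194 is given. Each sequence is from RefSeq and reads 5′ to 3′ on the minus strand.
Csf1: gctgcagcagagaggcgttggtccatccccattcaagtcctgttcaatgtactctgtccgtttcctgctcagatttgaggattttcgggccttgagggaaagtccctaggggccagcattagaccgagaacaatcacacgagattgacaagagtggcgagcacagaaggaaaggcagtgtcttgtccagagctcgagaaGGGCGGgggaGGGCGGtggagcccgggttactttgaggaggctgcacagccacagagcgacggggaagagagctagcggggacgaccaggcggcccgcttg
Gas6: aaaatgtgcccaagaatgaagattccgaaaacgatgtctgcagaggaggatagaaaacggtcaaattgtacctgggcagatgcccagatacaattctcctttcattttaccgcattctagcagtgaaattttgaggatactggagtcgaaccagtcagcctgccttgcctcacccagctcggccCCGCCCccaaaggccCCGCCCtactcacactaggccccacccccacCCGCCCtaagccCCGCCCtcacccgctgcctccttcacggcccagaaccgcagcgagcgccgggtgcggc
Pdgfa: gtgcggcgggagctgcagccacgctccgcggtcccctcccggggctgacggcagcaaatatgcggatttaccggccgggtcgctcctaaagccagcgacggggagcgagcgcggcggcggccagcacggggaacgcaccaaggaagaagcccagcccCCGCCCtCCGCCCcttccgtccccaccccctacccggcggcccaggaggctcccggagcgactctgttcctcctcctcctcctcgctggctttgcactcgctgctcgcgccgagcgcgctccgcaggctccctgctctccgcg

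GC boxes were present 2 times in the Csf1 window, 4 times in that of Gas6 and 2 times in that of Pdgfa, and 1 time in the other Pdgfa window. At least 1 GC box was found in 35.7% of 32851 windows of 300 bases in the same table. G and C made up 58.7% of the Csf1 window, 58.3% of the Gas6 window and 73.3% of the Pdgfa window, against a median of 52.7% over all windows. None of the printed windows held the AP-1 motif TGANTCA (7.81% of all windows), the core TGACGT of the CRE motif (7.51%) or the TATA motif TATAAA (13.6%), searched on both strands, so that no GC box overlapped one of them.

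Log2 ratios were taken to be sample over reference. The labels do not state this direction, and it is likely because titles put the cell type first, because all pairs of arrays correlated positively over all probes (r from 0.591 to 0.973), and because transcripts of blood and liver such as Hbb-b1 (-7.05 in M833 and -6.90 in WT) and Alb (-6.33 in each) lay far below the reference. WT replicate 2 carried 49 values above 8, which the other arrays did not, and without it the lowest correlation was 0.818. The arrays of each cell type were divided into sets, recognised on these same arrays as deviating together across dyes. Spearman correlations of deviations across dyes ran from 0.07 to 0.24 within and from -0.24 to -0.01 between M833 replicates 1, 2, 5 and 6 and M833 replicates 3, 4, 7 and 8, against 0.36 to 0.58 within and -0.60 to -0.37 between the like-numbered sets in WT. Deviations were taken from the mean of each cell type and dye, which pushes values between sets down when those within are up. The contrast is thus partly built in. With same-dye pairs included, residual correlations ran from -0.39 to 0.70 within sets and from -0.79 to 0.15 between sets of a cell type. P-values below from fits on part of the sets are descriptive. The labels do not say what the sets are, and the number of arrays limited the precision.

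Csf1, the macrophage growth factor, had the highest ratio to the reference of the 3 genes and was lower in M833. Its dye-adjusted log2 ratios ran from 0.91 over a median of 1.20 to 1.32 in M833, against 1.16, 1.52 and 2.13 in WT. The cell types overlapped: 8 of 8 M833 arrays lay below the WT mean, and 6 of 8 WT arrays lay above the highest M833 array. Csf1 averaged 1.16 ± 0.15 in M833 and 1.61 ± 0.37 in WT (SD, n = 8 each), which is 2.24 times the reference in M833 and 3.05 times in WT. The log2 difference of -0.45 ± 0.14 (SE; 95% interval -0.74 to -0.15) passed the test in limma (adjusted p = 0.0253), a 1.36-fold lower level. Over all 12761 features 25.9% passed this test and 15.9% were lower in M833, so that such calls were common. The calls were 2025 lower and 1276 higher, and with each array centred on its median, where 25.0% passed, they were 1635 lower and 1558 higher.

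The WT arrays split for Csf1, and M833 overlapped with the lower set. M833 replicate 1 was at 0.91 and the other 7 M833 arrays lay between 0.96 and 1.32. WT replicates 1, 2, 5 and 6 were at 1.16, 1.29, 1.32 and 1.39, while WT replicates 3, 4, 7 and 8 were at 1.93, 1.99, 1.64 and 2.13. WT replicates 1 and 2 thus lay inside the M833 range and WT replicates 5 and 6 at or just above its upper end, while the other WT arrays stood clear of both. M833 minus WT replicates 1, 2, 5 and 6 alone was -0.13 ± 0.08 (SE; 95% interval -0.31 to 0.05; adjusted p = 0.235, limma), where 36.3% of features passed and 21.8% were lower. M833 minus WT replicates 3, 4, 7 and 8 alone was -0.76 ± 0.10 (adjusted p = 8.1e-05, limma), where 33.9% passed and 20.1% were lower. The sets were recognised on these same arrays, so these p-values are a description and no independent test. Scaling of the arrays to one spread moved the median difference of 6 blood and liver genes, all far below the reference, from 0.05 to -0.94. It also took them from 0 calls to 5 calls lower. On that scale, where 26.7% of features passed and 16.8% were lower, the Csf1 call was lost, at -0.22 (adjusted p = 0.246, limma). It was also lost when the set was a random block (adjusted p = 0.113), where 11.5% passed and 7.08% were lower, without either set of M833 arrays (-0.40 and -0.49), without M833 replicate 1 (adjusted p = 0.0525) or 7 (adjusted p = 0.0516), and without WT replicate 3 (adjusted p = 0.0502).

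**Figure D1:**
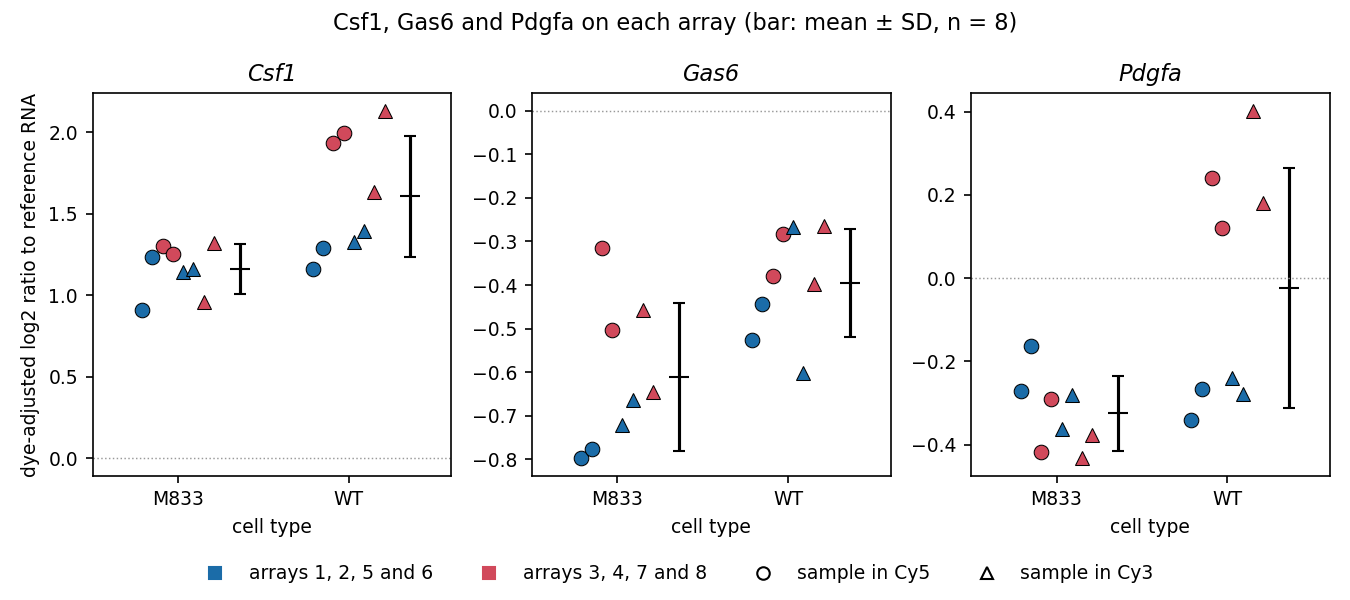
Dye-adjusted log2 ratios to the reference RNA (vertical axes, a separate scale for each gene) of Csf1, Gas6 and Pdgfa on the 8 M833 and 8 WT arrays, with colours for the sets of 4 arrays and symbols for the dye of the sample. Bars give mean ± SD over 8 arrays. WT replicates 3, 4, 7 and 8 stand above the M833 arrays for Csf1 and Pdgfa, and for Gas6 M833 replicates 1, 2, 5 and 6 stand below the other M833 arrays.

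Pdgfa, the ligand of PDGFRA, was lower in M833 over all arrays and showed the same split of the WT arrays. It ran from -0.43 over a median of -0.33 to -0.16 in M833, against -0.34, -0.06 and 0.40 in WT. WT replicates 3, 4, 7 and 8 were at 0.24, 0.12, 0.40 and 0.18 and lay above all 8 M833 arrays, whereas WT replicates 1, 2, 5 and 6, at -0.34, -0.27, -0.24 and -0.28, lay inside the M833 range. Pdgfa averaged -0.32 ± 0.09 in M833 and -0.02 ± 0.29 in WT (SD, n = 8 each), so that the SD in WT was 3.20 times that in M833. The log2 difference was -0.30 ± 0.10 (SE; 95% interval -0.52 to -0.08; adjusted p = 0.0442, limma), a 1.23-fold lower level. It was -0.56 ± 0.06 against WT replicates 3, 4, 7 and 8 alone (adjusted p = 2.1e-05, limma). Against WT replicates 1, 2, 5 and 6 alone it was -0.04 ± 0.05 (95% interval -0.15 to 0.06; adjusted p = 0.509, limma). Both p-values are again a description, as the sets were recognised on these arrays. The Pdgfa call was lost with the set as a random block (adjusted p = 0.123) and with each array centred on its median (adjusted p = 0.0759). It was also lost without either set of M833 arrays, without WT replicate 3, 4, 7 or 8, and without M833 replicate 1, 3, 4, 5, 6, 7 or 8, with adjusted p up to 0.0833 among fits without 1 array.

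Gas6, the TAM receptor ligand, was below the reference in both cell types and lower in M833, and the wider split of its arrays was within M833. It ran from -0.80 over a median of -0.66 to -0.31 in M833, against -0.60, -0.39 and -0.26 in WT. The cell types overlapped, with 5 of 8 M833 arrays below the lowest WT array and 3 of 8 WT arrays above the highest M833 array. Gas6 averaged -0.61 ± 0.17 in M833 and -0.40 ± 0.12 in WT (SD, n = 8 each). The log2 difference was -0.22 ± 0.07 (SE; 95% interval -0.37 to -0.06; adjusted p = 0.0425, limma), a 1.16-fold lower level. M833 replicates 1, 2, 5 and 6 were at -0.80, -0.78, -0.72 and -0.66, and M833 replicates 3, 4, 7 and 8 at -0.31, -0.50, -0.46 and -0.65. Every array of the first set thus lay below every array of the other.

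The Gas6 difference depended on which M833 arrays entered it. Without M833 replicates 1, 2, 5 and 6 it was -0.09 ± 0.08 (SE; 95% interval -0.26 to 0.09; adjusted p = 0.549, limma), where 13.2% of features passed and 8.02% were lower. Without M833 replicates 3, 4, 7 and 8 it was -0.35 ± 0.07 (adjusted p = 0.0064, limma), where 14.6% passed and 9.08% were lower. Against WT replicates 1, 2, 5 and 6 alone Gas6 differed by -0.15 (adjusted p = 0.236) and against WT replicates 3, 4, 7 and 8 alone by -0.28 (adjusted p = 0.0232). Its call was also lost with the set as a random block (adjusted p = 0.217), with each array centred on its median (adjusted p = 0.0711), without M833 replicate 1, 2, 5, 6 or 8, and without WT replicate 3, 4, 5, 7 or 8, with adjusted p up to 0.086 among fits without 1 array.

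The size of these splits can be set beside those of all named genes. The mean of M833 replicates 1, 2, 5 and 6 minus that of M833 replicates 3, 4, 7 and 8 was -0.26 for Gas6, and 2.91% of named genes had a larger difference in either direction. For Csf1 it was -0.09, exceeded by 26.5% of named genes, and for Pdgfa 0.11, exceeded by 20.8%. In WT the same difference was -0.63 for Csf1, exceeded by 4.01% of named genes, -0.52 for Pdgfa, exceeded by 6.96%, and -0.13 for Gas6, exceeded by 52.8%. As the sets were recognised on these arrays, these values are a description with no test. The SD over the WT arrays was 2.41 times that over the M833 arrays for Csf1, and for Gas6 it was 0.735 times.

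Both dye orientations gave the same direction for each gene. Csf1 differed by -0.42 on arrays with the sample in Cy5 and by -0.47 on those with it in Cy3, Gas6 by -0.19 and -0.24, and Pdgfa by -0.22 and -0.38. The difference between orientations passed the test in limma for 0 of the 12761 features, these genes included, with 361 features at an unadjusted p under 0.05. With 4 arrays against 4, none of the 3 genes passed within either orientation (adjusted p from 0.116 to 0.343, limma). An exact two-sided permutation test of the cell types within dye orientations, which treats the 16 arrays as independent, gave p = 0.00816 for Csf1, 0.0204 for Gas6 and 0.0188 for Pdgfa, where the smallest p possible is 0.000408. None of the 3 genes had M833 and WT arrays fully apart in both orientations, which held for 10.5% of all features, and with M833 lower for 6.49% of all features. Among named genes 5.09% differed by more than Csf1 in either direction, 12.5% by more than Pdgfa and 22.6% by more than Gas6.

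**Figure D2:**
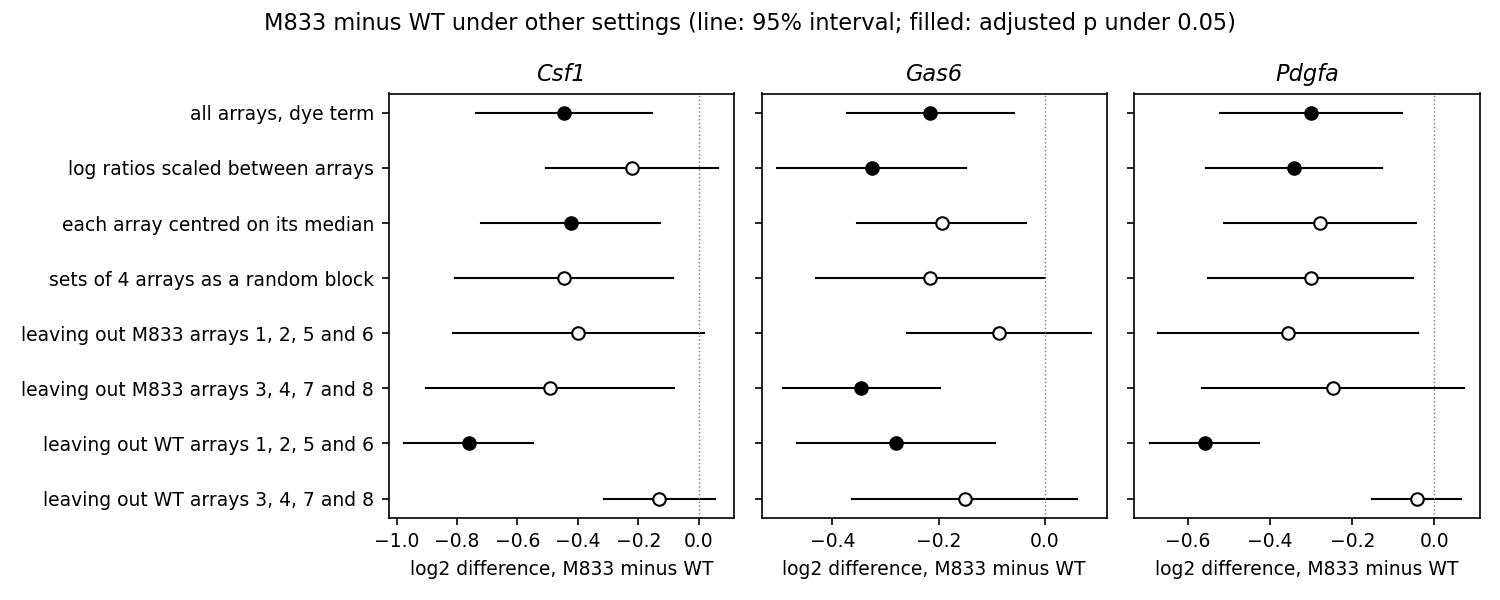
Log2 difference of M833 minus WT for Csf1, Gas6 and Pdgfa (horizontal axes) over all arrays and under 7 other settings, with 95% intervals, and filled points where the adjusted p in limma was under 0.05. All points lie below 0, and without WT replicates 3, 4, 7 and 8 they lie at -0.13 for Csf1, -0.15 for Gas6 and -0.04 for Pdgfa with intervals that include 0.

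A ratio compares a gene with its own level in the reference and does not rank transcripts of different genes. Csf1 exceeded the reference in M833 (adjusted p = 1.6e-08, limma) and in WT (adjusted p = 2.4e-10), and its ratio was above those of 98.8% of named genes in M833 and 99.1% in WT. Over all features 36.3% were above the reference in M833 and 43.5% in WT. Gas6 was below the reference, at 0.655 times its level in M833 (adjusted p = 2.3e-08, limma) and 0.760 times in WT (adjusted p = 3.7e-06), as 36.1% of features were in M833 and 35.8% in WT. Pdgfa was below the reference in M833, at 0.798 times (adjusted p = 0.00088, limma). In WT its mean of -0.02 was not separated from 0 by the test (adjusted p = 0.778), with WT arrays on either side.

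Of 13 receptors and further ligands of these pathways, 7 were measured: 2 fell, 0 rose and 5 missed the threshold, where 25.9% of all features were called and 15.9% were lower. Their median log2 difference was -0.19, against -0.03 over all features. Csf1r and Mertk, Il34, which encodes the other ligand of CSF1R, and the PDGF genes Pdgfb and Pdgfd had no named probe here. Nrp1, which encodes a co-receptor for semaphorins and VEGF that also binds PDGFs, fell by 0.32 ± 0.04 (SE, 8 arrays per cell type; adjusted p = 1.7e-05, limma). Nrp1 ran from 0.23 to 0.46 in M833 and from 0.56 to 0.76 in WT, so that all M833 arrays lay below all WT arrays. Pros1, which encodes protein S, the other TAM ligand, fell by 0.19 ± 0.05 (adjusted p = 0.0164, limma), with probes at -0.35 and -0.03. The Pros1 call was lost with the set as a random block (adjusted p = 0.0713), without either set of M833 arrays, and against WT replicates 3, 4, 7 and 8 alone, at -0.06 (adjusted p = 0.171).

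The 4 receptor genes measured did not pass the test over all arrays. Axl was at 1.57 ± 0.17 in M833 and 1.48 ± 0.12 in WT (SD, n = 8 each; adjusted p = 0.385, limma), and after scaling of the arrays to one spread it was called higher, at 0.35 (adjusted p = 0.0026). Tyro3 differed by -0.05 (adjusted p = 0.766, limma), and its WT arrays split the other way from those of Csf1, with means of 1.15 on replicates 1, 2, 5 and 6 and 0.57 on replicates 3, 4, 7 and 8. Against WT replicates 1, 2, 5 and 6 alone Tyro3 was lower in M833, at -0.34 (adjusted p = 0.0077), and against WT replicates 3, 4, 7 and 8 alone it was higher, at 0.23 (adjusted p = 0.0364). The receptor of PDGF-A, Pdgfra, was at 0.04 ± 0.16 in M833 and 0.26 ± 0.29 in WT, a difference of -0.21 (adjusted p = 0.183, limma). Pdgfrb was at 1.04 in M833 and 1.12 in WT (adjusted p = 0.512, limma).

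Pdgfc, a further ligand of PDGFRA, resembled Pdgfa in where its arrays split. Its means were 1.85 on M833 replicates 1, 2, 5 and 6 and 1.64 on M833 replicates 3, 4, 7 and 8, against 1.76 and 2.22 on the like-numbered sets of WT arrays. Over all arrays it differed by -0.25 ± 0.10 (adjusted p = 0.0829, limma). It passed without WT replicate 2 or 5 and against WT replicates 3, 4, 7 and 8 alone, at -0.48 (adjusted p = 0.00049, limma). After scaling of the arrays to one spread the median of the 7 receptors and ligands was 0.09, so that its sign turned with the scale. On that scale 1 gene was higher and 2 lower, where 26.7% of all features were called and 16.8% were lower.

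**Figure D3:**
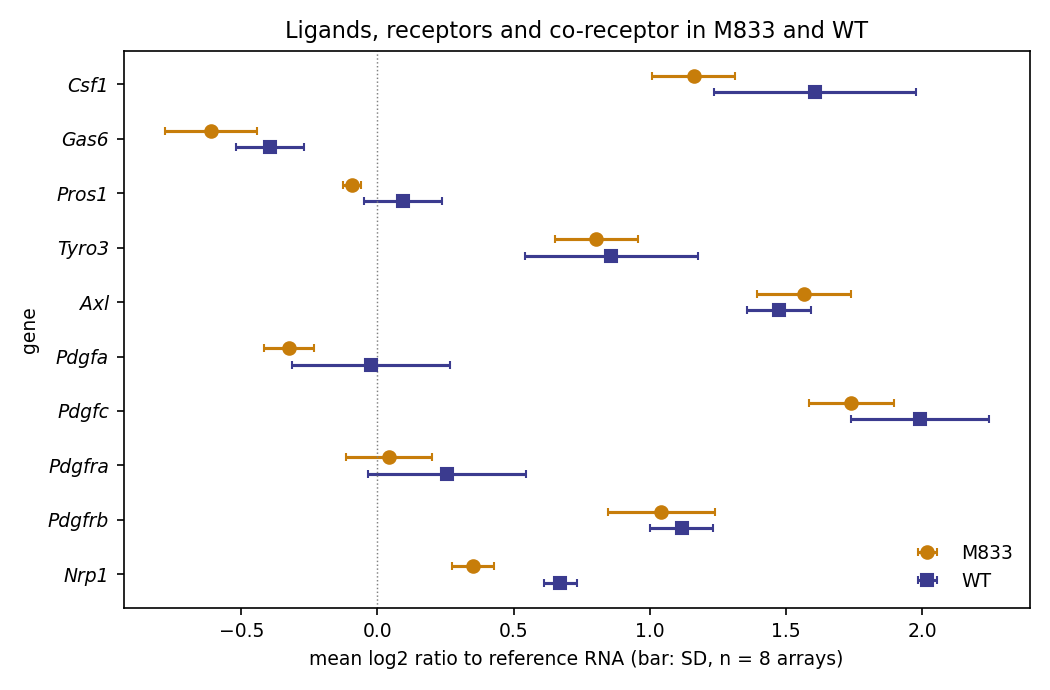
Mean log2 ratio to the reference RNA (horizontal axis, bars are SD over 8 arrays) of Csf1, Gas6, Pdgfa and the 7 measured receptors, further ligands and co-receptor in M833 and WT. The bars of Nrp1 lie apart, at 0.35 in M833 and 0.67 in WT, and those of Axl, Tyro3, Pdgfra and Pdgfrb overlap.

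GAS6 needs vitamin K-dependent carboxylation, and of 13 genes of that step and other Gla proteins 5 were measured. Of these 3 fell, 1 rose and 1 missed the threshold, where 25.9% of all features were called and 15.9% were lower. The median was -0.19. Vkorc1, the enzyme that recycles vitamin K, fell by 0.43 ± 0.08 (adjusted p = 0.00081, limma), with arrays at -1.35 to -0.94 in M833 and at -0.87 to -0.36 in WT. Its paralog Vkorc1l1 rose by 0.11 ± 0.03 (adjusted p = 0.0138, limma). That call was lost with the set as a random block, after scaling to one spread and when any set but WT replicates 3, 4, 7 and 8 was left out. Mgp, which encodes a Gla protein that inhibits mineralisation, fell by 1.21 ± 0.26 (adjusted p = 0.0027, limma), and its WT means were 1.504 on replicates 1, 2, 5 and 6 and 0.21 on replicates 3, 4, 7 and 8, the other way round from Csf1 and Pdgfa. Without M833 replicates 1, 2, 5 and 6 Mgp was not called. Proc, protein C, differed by -0.07 (adjusted p = 0.301, limma).

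Downstream of such receptors, 18 of 34 listed signal transduction genes were measured, with a median of -0.04. Of these 6 fell, 1 rose and 11 missed the threshold, where 25.9% of all features were called and 15.9% were lower. Akt1, a kinase of the PI3K pathway, fell by 0.28 ± 0.03 (adjusted p = 4.2e-06, limma), and Dok1, an adaptor that restrains receptor tyrosine kinase signals, by 0.53 ± 0.09 (adjusted p = 0.00052). Both kept their calls in every setting run for these lists. Fits on a single dye orientation were not among those settings. Neither was averaging of each set to 1 replicate, which left 0 calls over all features. The adaptor gene Shc1 fell by 0.21 and Pik3r1, which encodes a regulatory subunit of PI3K, by 0.20, and both calls were lost with the set as a random block. Fyn, a kinase of the Src family, rose by 0.13 (adjusted p = 0.0275, limma), a call lost without M833 replicate 3 or 7, without WT replicate 2 or 6, after scaling to one spread, with the set as a random block and when sets of arrays were left out. With the set as a random block 3 genes of this list were lower and 0 higher, where 7.08% of all features were lower.

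Of genes that PDGF or serum induces in fibroblasts, 12 of 30 were measured, with a median of -0.15. Of these 5 fell, 1 rose and 6 missed the threshold, where 25.9% of all features were called and 15.9% were lower. Among transcription factor genes, Egr1 fell by 0.53 ± 0.11 (adjusted p = 0.0016, limma), Atf3 by 0.23 ± 0.05 (adjusted p = 0.0019), Fosl2 by 0.28 ± 0.06 (adjusted p = 0.0023) and Fosl1 by 0.18 ± 0.04 (adjusted p = 0.004). Egr1 ran from -0.35 to -0.18 in M833 and from -0.15 to 0.57 in WT. Its WT means were 0.52 on replicates 1, 2, 5 and 6 and -0.02 on replicates 3, 4, 7 and 8, again the other way round from Pdgfa. The measured genes split in both directions. Ier3, at -0.09 and 1.09 on these WT sets, and Plaur, at 0.38 and 1.40, split the same way round as Pdgfa. So did Fos, Fosl1, Myc, Atf3 and Odc1, while Fosl2, Jun, Klf4 and Cxcl1 split as Egr1 did. The call of Fosl1 was lost with the set as a random block and without M833 replicates 3, 4, 7 and 8, and that of Fosl2 without M833 replicates 1, 2, 5 and 6. Odc1, which encodes the enzyme that starts polyamine synthesis, rose by 0.13 (adjusted p = 0.015, limma) on the mean of 2 probes that differed in sign, at -0.07 and 0.34. Its call was lost with the set as a random block, after scaling to one spread and when some, but not all, of the sets of arrays were left out. Fos differed by -0.11 and Myc by -0.07, and neither passed the test over all arrays. Myc was called lower after scaling to one spread, at -0.33 (adjusted p = 0.0336, limma). It was also called lower against WT replicates 3, 4, 7 and 8 alone, at -0.27 (adjusted p = 0.0417).

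Among 60 other ligands that fibroblasts can secrete, 16 were measured: 3 rose, 2 fell and 11 missed the threshold, where 25.9% of all features were called, and the median was -0.06. Mdk, which encodes the heparin-binding growth factor midkine, rose by 1.63 ± 0.19 (adjusted p = 1.6e-05, limma), Mif, a cytokine gene whose product acts on macrophages, by 0.18 ± 0.04 (adjusted p = 0.0042) and Dlk1, which encodes a membrane protein with EGF-like repeats, by 0.22 ± 0.07 (adjusted p = 0.0305). Tgfb2, a TGF-beta ligand, fell by 0.29 ± 0.08 (adjusted p = 0.0108, limma) and Bmp1, a procollagen protease, by 0.18 ± 0.06 (adjusted p = 0.0361). Of these 5 calls that of Mdk held in every setting run for these lists, which did not include averaging of each set. The calls of Mif, Bmp1 and Dlk1 were lost with the set as a random block. This left 1 gene higher and 1 lower, where 11.5% of all features were called. Those of Tgfb2, Bmp1 and Dlk1 were lost after scaling to one spread and when some, but not all, of the sets of arrays were left out. Dlk1 was also not called without M833 replicate 3, 4 or 8 or WT replicate 7, and Bmp1 without M833 replicate 1, 2, 3, 5, 6 or 7 or WT replicate 3, 4, 7 or 8. The chemokine gene Cxcl12 was at 1.34 in M833 and 1.32 in WT (adjusted p = 0.854, limma), and Igf1 differed by -0.76 ± 0.44 (adjusted p = 0.223). The WT means of Igf1 were -2.14 on replicates 1, 2, 5 and 6 and -0.30 on replicates 3, 4, 7 and 8, as for Csf1. Against WT replicates 3, 4, 7 and 8 alone Igf1 was lower, at -1.68 (adjusted p = 0.0057, limma). Its WT arrays ran from -2.22 to 1.42. Ptn split the other way, at 1.37 and -0.24 on the same WT sets.

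Gas6 was named for its induction at growth arrest, and of 11 genes listed for such a link or for their name alone 6 were measured. Of these 2 fell, with Gas6 itself among them, 1 rose and 3 missed the threshold. Over all features 25.9% were called and 15.9% were lower. Gas2l3, listed for its name, encodes a cytoskeletal linker active in dividing cells and rose by 0.40 ± 0.04 (adjusted p = 4.6e-06, limma). Prnp, the prion protein gene, fell by 0.55 ± 0.08 (adjusted p = 0.00019, limma). Gas1, which encodes a membrane protein that binds hedgehog ligands, differed by 0.09 ± 0.28 (adjusted p = 0.837, limma), with WT means of 0.73 on replicates 1, 2, 5 and 6 and -0.77 on replicates 3, 4, 7 and 8.

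Transcripts of macrophages, the cells that CSF1 sustains, were lower in M833. Of 22 markers 7 were measured, Csf1r not among them, and all 7 fell, with a median of -0.86. Over all features 25.9% were called and 15.9% were lower. C1qb and C1qa, which encode chains of complement C1q, fell by 1.45 (adjusted p = 1.4e-11, limma) and 1.17 (adjusted p = 7.9e-08), the actin bundling gene Lcp1 by 0.86 (adjusted p = 1.8e-07) and the Fc receptor gamma chain gene Fcer1g by 0.81 (adjusted p = 2.1e-07). The mean of the 7 markers spanned -1.54 to -1.29 on M833 arrays and -0.40 to -0.34 on WT arrays. C1qb was at -1.27 and -1.34 on the sets of M833 arrays, against 0.11 on WT replicates 1, 2, 5 and 6 and 0.17 on WT replicates 3, 4, 7 and 8. Other markers, singled out after their values were seen, did divide the WT arrays, in both directions. C1qa was at -0.71 on WT replicates 1, 2, 5 and 6 and -0.47 on WT replicates 3, 4, 7 and 8, and Laptm5, which encodes a lysosomal protein of blood cells, at -0.90 and -0.58, the same way round as Csf1. Lyz2, which encodes lysozyme, was at 0.04 on WT replicates 1, 2, 5 and 6 and -0.68 on WT replicates 3, 4, 7 and 8, the other way round. All 7 markers were called lower in M833 against either set of WT arrays alone, where Csf1 was called against 1 of them. Of all features 21.8% were lower against WT replicates 1, 2, 5 and 6 and 20.1% against WT replicates 3, 4, 7 and 8. In bulk samples fewer cells of a type and less RNA per cell cannot be told apart, and the part of macrophages in the values of Csf1 and Gas6, which they can also express, was not tested.

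Of 19 fibroblast and mesenchyme markers 9 were measured, with a median of -0.21. Of these 6 fell, 0 rose and 3 missed the threshold, where 25.9% of all features were called and 15.9% were lower. With the set as a random block 3 were lower, where 7.08% of all features were lower. There the calls of Col1a1 (adjusted p = 0.0636, limma), Vim (adjusted p = 0.153) and Lum (adjusted p = 0.285) were lost. The mean of the 9 spanned -0.55 to -0.38 on M833 arrays and -0.22 to -0.05 on WT arrays, and its part in the values of the ligands was not tested. Col1a2, a chain of type I collagen, fell by 0.87 (adjusted p = 1.8e-06, limma). Fn1, fibronectin, was at 1.65 in M833 and 2.03 in WT, and Vim, vimentin, at 0.85 in M833 and 1.04 in WT, all above the reference, and the calls of both were lost after scaling to one spread. Dcn, which encodes a small matrix proteoglycan, was at -2.80 in M833 and -2.56 in WT, and Lum, which encodes another, at -2.57 in M833 and -2.41 in WT, all far below the reference. The Lum call was also lost with each array centred on its median, when any set of arrays was left out, without M833 replicate 1, 2, 3, 6 or 7 and without WT replicate 2 or 5.

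**Figure D4:**
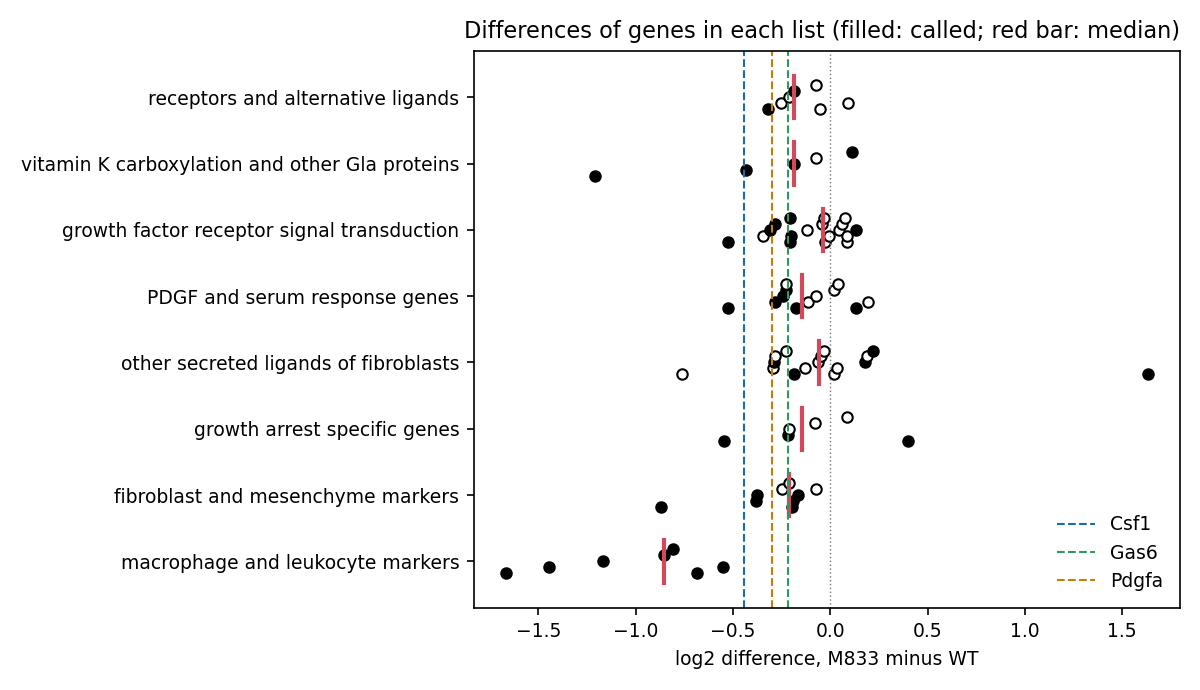
Log2 difference of M833 minus WT (horizontal axis) of each measured gene in 8 lists, filled where the adjusted p in limma was under 0.05, with the list median as a red bar and Csf1, Gas6 and Pdgfa as dashed lines. All 7 macrophage markers lie to the left of Csf1, and no called gene of the fibroblast list lies to the right of 0.

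The genes whose values followed each ligand most closely over the 16 arrays were different for the 3. The likeness was Pearson's r of dye-adjusted ratios among 3556 named genes with at least the median SD, and it is a description, since arrays share cell type and set. For Csf1 the highest were Mcl1, which encodes an inhibitor of apoptosis (r = 0.939), Srpr, of the signal recognition particle receptor (0.932), the fucosyltransferase gene Pofut2 (0.930) and Mdm2, the ubiquitin ligase of p53 (0.927). For Pdgfa they were Arpc5, a subunit of the Arp2/3 actin complex (0.965), Ctla2b (0.959), the small heat shock protein gene Cryab (0.956) and Pdlim1, a PDZ and LIM protein of the actin cytoskeleton (0.953). For Gas6 they were the calcium-binding protein gene Nucb1 (0.830), Maged1 (0.820), the elastic fibre gene Emilin1 (0.810) and Sytl4 (0.810). Within cell types r was 0.689 in M833 and 0.930 in WT for Mcl1 with Csf1, 0.874 in M833 and 0.982 in WT for Arpc5 with Pdgfa, and 0.780 in M833 and 0.612 in WT for Nucb1 with Gas6. With Csf1, r was 0.424 in M833 and 0.956 in WT for Srpr, 0.840 and 0.888 for Pofut2, and 0.321 and 0.942 for Mdm2. Sytl4 with Gas6 had 0.833 in M833 and 0.441 in WT. Csf1 and Pdgfa themselves had r = 0.818 over the 16 arrays, 0.03 within M833 and 0.796 within WT. Csf1 and Gas6 had r = 0.651 over the 16 arrays, 0.279 within M833 and 0.618 within WT. Gas6 and Pdgfa had r = 0.439 over the 16 arrays, -0.688 within M833 and 0.491 within WT.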

How the data were processed

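The values the authors deposited are log2 ratios of 2 channels, made with limma per the submitters' processing notes, which name no version. Background correction, normalization and filters are steps not given in the sources used here. This log2 scale was read from the values. Array medians lay between -0.02 and 0.07, and any centring is unstated.

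GEO's platform annotation, which may be out of date, gave 1 symbol to 9600 probes, several to 214 and none to 5433. Probes of 1 gene were averaged. The 12761 resulting features were fitted in R 4.3.3 with limma 3.58.1 (lmFit, eBayes), with terms for cell type and dye over the 16 arrays, and called at a Benjamini-Hochberg adjusted p under 0.05 over all features. Printed values per array have the fitted dye effect removed. Groups follow the labels of the channel that holds the sample, and replicate numbers follow series order. The fit was tested on simulated data.

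The genes, lists, sets of arrays and alternatives were chosen with earlier results of these data known. Named genes were the 3 ligands, the measured receptors and further ligands, up to 4 called genes per direction and list by adjusted p, and the 4 genes most like each ligand. Others were named as examples after their values were seen.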

Additional observations from a re-analysis of the deposited data

How the results depend on the processing

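Csf1, Gas6 and Pdgfa stayed below 0 in all 32 alternatives each, and the call was lost in 12 of them for Csf1, 19 for Gas6 and 21 for Pdgfa. The cause of these losses was not tested. Several alternatives could not change the sign, because they left the estimate over all arrays unchanged. These were no dye term, robust moderation, the set as a random block, averaging of each set, each probe by itself and the permutation. For Pdgfa, M833 replicates 1, 2, 5 and 6 minus WT replicates 1, 2, 5 and 6 was 0.01. All other pairs of an M833 set with a WT set were below 0 for each gene. The log2 difference of M833 minus WT ran from -0.76 to -0.13 for Csf1, from -0.35 to -0.086 for Gas6 and from -0.56 to -0.043 for Pdgfa. Without 1 array each it ran from -0.51 to -0.37 for Csf1, from -0.26 to -0.19 for Gas6 and from -0.35 to -0.24 for Pdgfa, and the calls over all features ran from 2878 to 3295, against 3301 with all arrays.

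The Csf1 call was lost after scaling the arrays to one spread (-0.22), the Gas6 and Pdgfa calls with arrays centred on their medians (-0.19 for Gas6, -0.28 for Pdgfa) and with no dye term (-0.22 for Gas6, -0.30 for Pdgfa, with 2000 calls over all features). All 3 calls were lost in the following settings. On Cy5 arrays alone the differences were -0.42 for Csf1, -0.19 for Gas6 and -0.22 for Pdgfa (835 calls over all features), and on Cy3 arrays alone -0.47, -0.24 and -0.38 (1100 calls). With the set as a random block (1465 calls), or with each set averaged to 1 replicate (0 calls in limma, 1675 features at an unadjusted p under 0.05), they were -0.45, -0.22 and -0.30. Without WT replicates 3, 4, 7 and 8 they were -0.13 for Csf1, -0.15 for Gas6 and -0.043 for Pdgfa, and without 3 M833 arrays whose slide numbers form a second series -0.43, -0.23 and -0.27. Without M833 replicates 1, 2, 5 and 6 all 3 calls were lost too, at -0.40 for Csf1, -0.086 for Gas6 and -0.36 for Pdgfa (1685 calls), and without M833 replicates 3, 4, 7 and 8 those of Csf1 (-0.49) and Pdgfa (-0.25) were lost (1858 calls). Each gene rested on 1 probe, whose signal over background was not analysed here. No paired analysis was possible because the labels give no replicate numbers and those used here follow series order.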
